A study of Mus musculus with 5 samples.

Results

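Interferon-stimulated antiviral effectors are the genes through which a cell that has sensed interferon blocks viral entry, translation, replication and release. A panel of 40 such mouse genes was taken by symbol from a deposited table of read counts in macrophages that were grown from bone marrow with the growth factor M-CSF. All 40 symbols were found among the 20581 gene symbols of the table, each represented by its transcript row with the highest mean count, and all 40 passed the filter on low counts that kept 13339 genes. The cells came from C57BL/6 background mice aged 7 to 8 weeks and were grown for 7 days with 25 ng/ml M-CSF, with no other stimulus named. Of the 5 libraries, 3 are wild type (numbered 1 to 3) and 2 are NICcA (numbered 2 and 3). The labels do not spell out NICcA and do not name a promoter, a Cre driver or the cells in which the allele acts. In the literature the name is used for conditional expression of the intracellular domain of Notch, which moves to the nucleus and drives transcription with Rbpj. The labels do not say whether libraries of a genotype came from separate animals or cultures, so each p-value speaks only of the spread among these 5 libraries, and that spread may be technical.

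Type I interferon binds the receptor chains Ifnar1 and Ifnar2, and the attached kinases Jak1 and Tyk2 phosphorylate STAT factors. With Irf9 these form a complex that binds the interferon-stimulated response element (ISRE), a short element in the promoters of the effector genes. Macrophages hold a low level of this program at rest through traces of interferon beta, and sensors of viral RNA, of DNA or of bacterial products raise it through Irf3 and Irf7.

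The element is visible in the RefSeq promoters of the panel (build GRCm38.p6, 250 bases before to 50 after each start site). The core GAAANNGAAA, searched on both strands, occurred in 17 of the 33 promoters of the 29 panel genes that had an entry, which is 51.5%, against 3.44% of all 32851 promoters of the same length. It lay in promoters of 17 of those 29 genes. The core of the gamma-activated site, TTCNNNGAA, which reads the same on both strands, occurred in 24.2% of the panel promoters and in 8.3% of all. A match is a description of the letters and not a measured binding site. The stretches below are shown because they belong to genes whose levels are described next. The first group holds 4 strongly differing genes, the second a pair of near-copies with a smaller difference, and the last a gene that stood above wild type in both NICcA libraries. Capitals mark the ISRE core, overlapping matches run together, and TTTCNNTTTC is the same core read on the other strand.
Isg15: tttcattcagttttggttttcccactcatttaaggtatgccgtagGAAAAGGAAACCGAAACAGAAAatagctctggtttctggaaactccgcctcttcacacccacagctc
Ifit1: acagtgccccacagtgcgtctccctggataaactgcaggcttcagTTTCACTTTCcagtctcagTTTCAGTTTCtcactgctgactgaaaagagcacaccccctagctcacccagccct
Ifit3: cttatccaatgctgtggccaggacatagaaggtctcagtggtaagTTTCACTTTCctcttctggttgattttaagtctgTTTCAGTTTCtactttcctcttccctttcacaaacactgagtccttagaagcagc
Rsad2: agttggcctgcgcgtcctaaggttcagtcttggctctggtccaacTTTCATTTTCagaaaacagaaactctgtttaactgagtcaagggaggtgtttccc
Oas1a: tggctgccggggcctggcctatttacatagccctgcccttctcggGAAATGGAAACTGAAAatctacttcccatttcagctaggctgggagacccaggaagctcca
Oas1g: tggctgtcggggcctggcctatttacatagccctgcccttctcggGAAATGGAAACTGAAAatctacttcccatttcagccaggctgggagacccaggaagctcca
Phf11b: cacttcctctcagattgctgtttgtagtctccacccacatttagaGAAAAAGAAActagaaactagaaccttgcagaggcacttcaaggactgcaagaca

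These stretches lie at chr4:156200830-156200941 on the minus strand (Isg15), chr19:34640740-34640858 on the plus strand (Ifit1), chr19:34583328-34583461 on the plus strand (Ifit3) and chr12:26456518-26456617 on the minus strand (Rsad2). The others, all on the minus strand, lie at chr5:120907485-120907590 (Oas1a), chr5:120887571-120887676 (Oas1g) and chr14:59341326-59341425 (Phf11b). Counted from the start site, the first matched core stands at -78 in Isg15, -104 in Ifit1, -156 in Ifit3, -120 in Rsad2, -20 in Oas1a, -18 in Oas1g and -50 in Phf11b. Isg15 carries 3 overlapping cores in one run and Ifit1 and Ifit3 carry 2 separate ones. The Oas1a and Oas1g promoters were identical at 85.3% of 306 aligned positions. The other promoters with the core belonged to Bst2, Ddx58, Ddx60, Eif2ak2, I830012O16Rik, Ifih1, Ifitm3, Oas3, Phf11a and Trim21. The median NICcA 2 difference from wild type, in log2 CPM, was 1.95 for the 17 genes with it and 2.32 for the 12 without it. The 17 ran from 0.67 in Eif2ak2 to 4.999 in I830012O16Rik, and the 12 from 0.25 in Samhd1 to 4.78 in Ifi44.

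One NICcA library stands apart. Total counts were between 57442309 and 76562905 per library. Levels are given as CPM, counts scaled to library size with TMM factors, to compare libraries, and as RPKM, which the authors also scaled to transcript length, to compare genes. Hes1, a direct Notch target, lay above the wild type mean by 5.09 in NICcA 2 and by 4.42 in NICcA 3 on the log2 CPM scale. The 8 macrophage markers, among them Csf1r, Lyz2 and Cd68, summed to 13750 to 20200 CPM in wild type, 11890 in NICcA 2 and 12440 in NICcA 3. Most of each sum was Lyz2, at 11520 to 17520 CPM in wild type, 9302 in NICcA 2 and 10410 in NICcA 3. Cd68, Lyz2 and Mertk lay below every wild type library in both NICcA libraries, and Fcgr1 lay above in both. Those orders held for 18.5% and 18.4% of all tested genes. All 40 effector genes were highest of the 5 libraries in NICcA 2, whereas NICcA 3 lay inside the wild type range for 17, below it for 17 and above it for 6. All 40 thus lay above every wild type library in NICcA 2, as did 32.3% of all tested genes. NICcA 3 lay above every wild type library for 27.7% of all tested genes and below for 28.0%. Results are therefore given for each NICcA library as well as for the pair. In these bulk libraries a difference in RNA per cell and a difference in the number of cells of a type cannot be told apart.

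**Figure D1:**
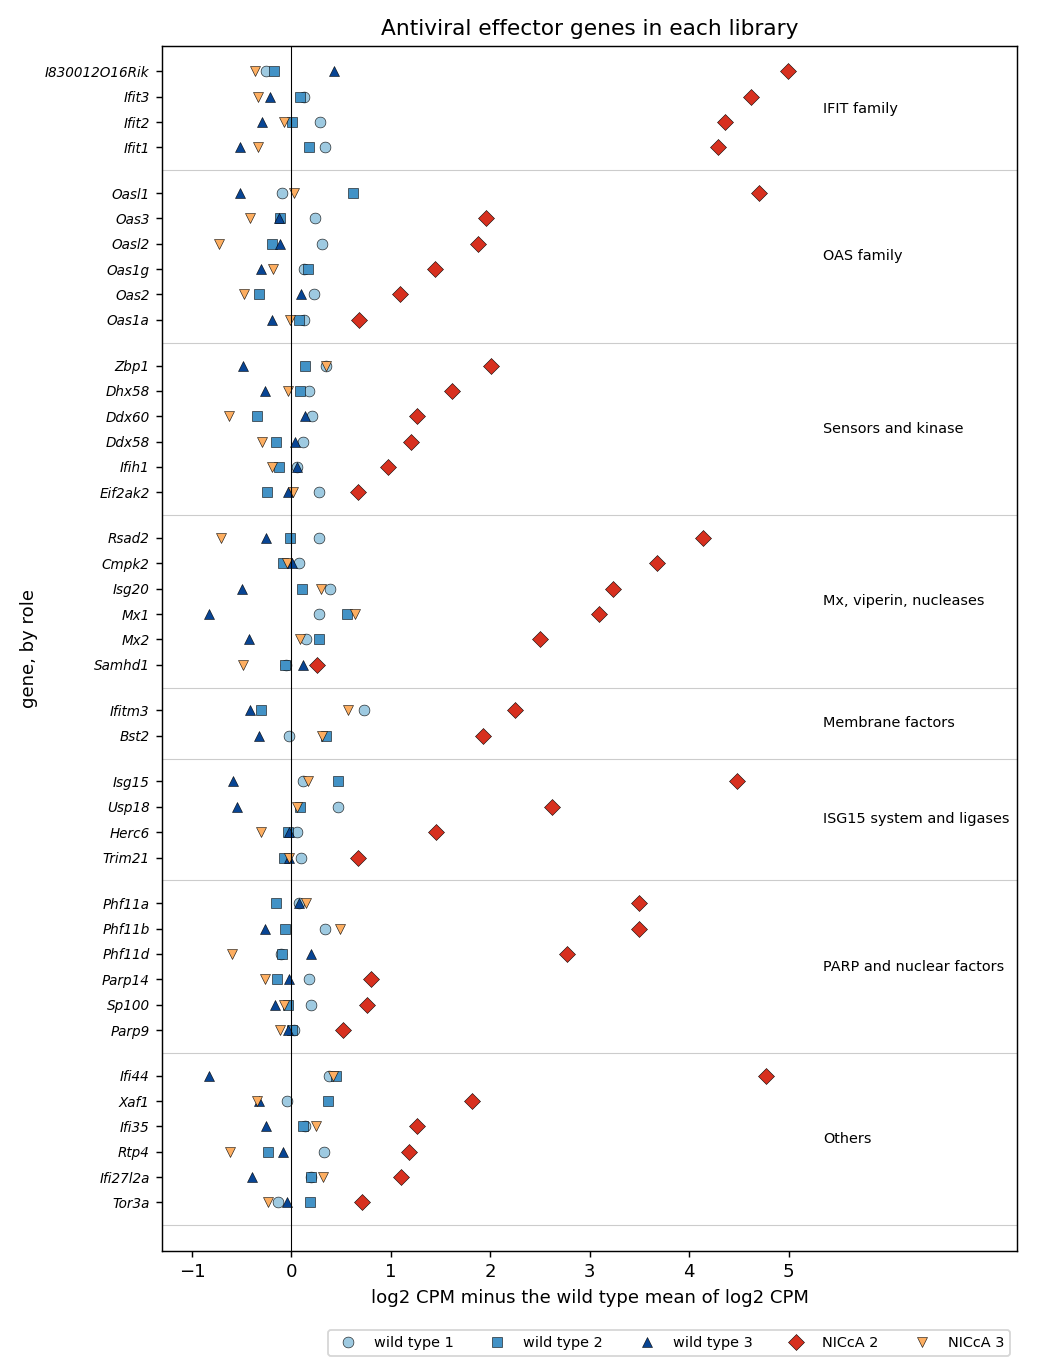
Each row is 1 of the 40 genes, grouped by role, and each point is 1 library, placed by its log2 CPM minus the mean log2 CPM of the 3 wild type libraries. The NICcA 2 points lie between 0.25 and 4.999, right of every other library in all rows, and the NICcA 3 points lie between -0.73 and 0.64.

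The first question is whether the effector genes differ between the genotypes. In NICcA 2 the genes that block translation of viral RNA (Ifit1, Ifit2, Ifit3), the modifier Isg15, the OAS relative Oasl1, viperin (Rsad2) and Ifi44 were between 17.5-fold and 26.15-fold the wild type mean, and in NICcA 3 they were between 0.602 and 1.25 times it. Over the panel, the ratio of CPM in NICcA 2 to the wild type mean had a median of 3.69 and ran from 1.19 in Samhd1 to 32.8 in I830012O16Rik. It passed 2-fold in 31 of the 40 genes (7.72% of all tested genes did). The ratio passed 4-fold in 17, 8-fold in 12 and 16-fold in 8, limits for which the share of all tested genes was not counted. Among all genes, 13 of the 100 largest NICcA 2 differences belonged to the panel and none of the 100 largest NICcA 3 differences did. In NICcA 3 the same ratio had a median of 0.940 and ran from 0.594 in Oasl2 to 1.45 in Mx1. It passed 2-fold in 0 of the 40 genes (4.91% of all tested genes did). The ratio stayed within 1.5 times of the wild type mean in 35 and was under that mean in 28. The shares of all tested genes were not counted for these last limits, so they set no trait of the panel apart.

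No gene of the 40 passed edgeR's quasi-likelihood test at an adjusted p below 0.05 (0.0300% of all tested genes passed with a higher level in NICcA), and their adjusted p-values ran from 0.289 to 0.890. At an unadjusted p below 0.05, 20 of the 40 were higher and 0 lower, against 7.68% of all tested genes higher. DESeq2 called 2 of the 40 higher, against 2.09% of all genes it tested. These were Isg20, an RNA exonuclease (adjusted p = 0.0453), and Phf11a, a PHD finger protein (adjusted p = 0.0355). Over the other fits their adjusted p ran from 0.074 to 0.951 for Isg20 and from 0.024 to 0.976 for Phf11a. Their DESeq2 log2 fold changes were 2.41 and 2.68. NICcA 2 was above 3 of 3 wild type libraries for both, as for all of the 40, and NICcA 3 was above them for Phf11a. The median log2 fold change was 1.14 for the panel and 0.0028 for all tested genes, and 39 of the 40 values were above 0. The exception was Samhd1, at -0.072 (SE 0.22, adjusted p = 0.890), and with no scaling factors its value was 0.030.

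The group mean joins a pair of libraries that differ. NICcA 2 was above 3 of 3 wild type libraries for all 40 genes, so that order sets no gene of the panel apart. With NICcA 3 left out, edgeR called 14 of the 40 genes higher in the lone NICcA 2 library, against 0.322% of all tested genes, on the assumption that this library varies as the wild type libraries do, and each of the 14 was above 3 of 3 wild type libraries. They were Ifit3 (adjusted p = 0.0063), Cmpk2 (adjusted p = 0.0063), Ifit2 (adjusted p = 0.0184), Rsad2 (adjusted p = 0.0184), I830012O16Rik (adjusted p = 0.0211), Phf11a (adjusted p = 0.0240), Phf11d (adjusted p = 0.0240), Ifit1 (adjusted p = 0.0244), Phf11b (adjusted p = 0.0244), Isg15 (adjusted p = 0.0316), Herc6 and Oasl1 (both 0.0353), Oas3 (0.0438) and Ifi44 (0.0479). With NICcA 2 left out, 0 of the 40 were called and 0.00% of all tested genes were, and the panel's median log2 fold change was -0.090. At an unadjusted p below 0.05 this comparison of NICcA 3 held 0 higher genes of the panel, against 1.95% of all tested genes, and 3 lower ones of the 40, Oasl2, Rsad2 and Samhd1, against 2.34% of all tested genes.

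**Figure D2:**
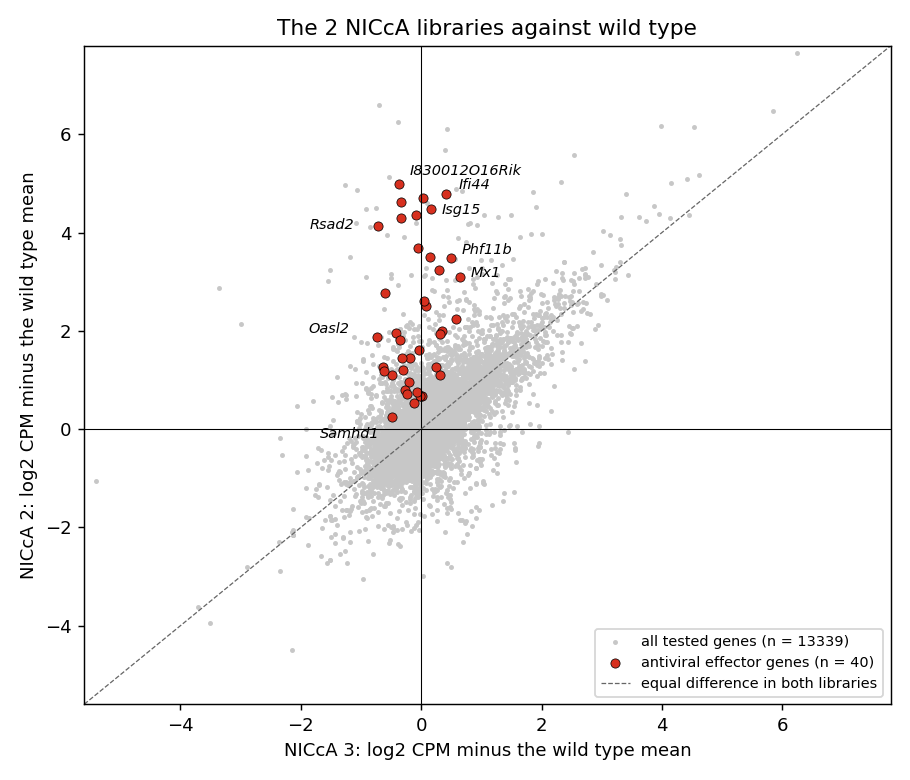
Each grey point is 1 of 13339 tested genes and each red point 1 of the 40 effector genes, with the NICcA 3 difference from the wild type mean of log2 CPM on the horizontal axis and the NICcA 2 difference on the vertical axis. Red points fill a vertical band up to 4.999 on the NICcA 2 axis, within -0.73 and 0.64 on the NICcA 3 axis, away from the dashed line of equal difference. The same 3 wild type libraries enter both axes.

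Levels in wild type and the size of the NICcA 2 ratio ran in opposite order. The 16 genes under 3 RPKM in wild type had a median ratio of 12.2, the 14 genes from 3 to 10 RPKM one of 3.25 and the 10 genes at 10 RPKM or more one of 1.92. The most abundant in wild type were Ifi27l2a, a small interferon-induced protein, at a mean of 98.7 RPKM (SD 22.6, n = 3), Bst2 at 92.9 RPKM (SD 21.4) and Ifitm3 at 50.4 RPKM (SD 25.2). The least abundant were I830012O16Rik at 0.218 RPKM (SD 0.060) and Ifi44 at 0.299 RPKM (SD 0.129). Ratio and level share the wild type values, so their order is a description. In NICcA 2 the order by level was Bst2 (374.9 RPKM), Ifitm3 (239.5 RPKM), Ifi27l2a (224.7 RPKM) and Isg15 (113.8 RPKM). Isg15 had stood at 3.06 to 6.38 RPKM in wild type, beside genes such as Trim21 and Oas3.

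**Figure D3:**
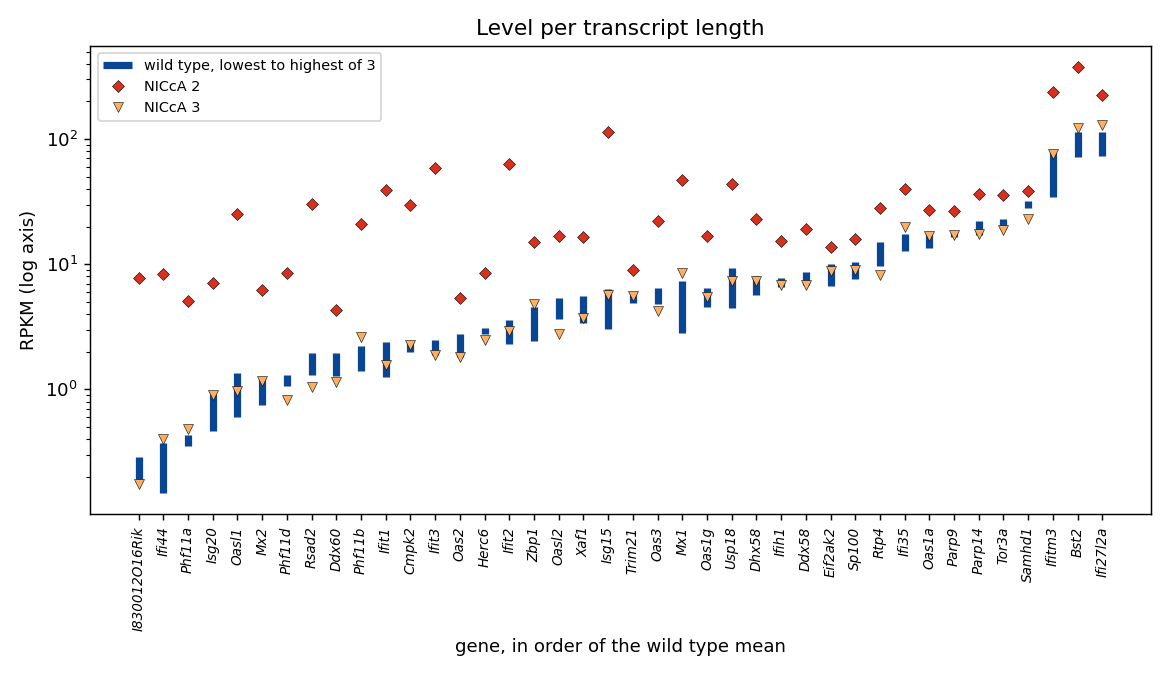
Bars span the lowest to the highest of the 3 wild type libraries in RPKM on a log axis for each of the 40 genes, ordered by the wild type mean, and markers give the NICcA 2 and NICcA 3 libraries. Isg15 reached 113.8 RPKM in NICcA 2, while Samhd1, a gene already at 28.2 to 32.0 RPKM in wild type, reached 38.5 RPKM.

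The IFIT proteins bind viral RNA that lacks host cap methylation and block its translation. Their genes lie together at chr19:34550550-34650009 (GRCm38.p6) and were the group with the highest median ratio in NICcA 2, 22.5 over 4 genes. Ifit1, which binds the RNA cap directly, stood at 7.76, 6.95 and 4.295 CPM in wild type libraries 1, 2 and 3, 120.5 CPM in NICcA 2 and 4.87 CPM in NICcA 3. Ifit2, which binds AU-rich RNA and forms complexes with its relatives, stood at 17.5, 14.4 and 11.65 CPM in wild type libraries 1, 2 and 3, 294.5 CPM in NICcA 2 and 13.6 CPM in NICcA 3. Ifit3, a partner of the other IFIT proteins, stood at 6.125, 5.96 and 4.83 CPM in wild type libraries 1, 2 and 3, 139 CPM in NICcA 2 and 4.42 CPM in NICcA 3. I830012O16Rik, the gene now named Ifit3b, stood at 0.451, 0.478 and 0.744 CPM in wild type libraries 1, 2 and 3, 18.3 CPM in NICcA 2 and 0.416 CPM in NICcA 3, on counts of 26, 35 and 49 in wild type, 1224 in NICcA 2 and 30 in NICcA 3. For all 4 genes NICcA 2 was at least 16-fold above the wild type mean, and NICcA 3 was below every wild type library for Ifit3 and I830012O16Rik and inside the wild type range for Ifit1 and Ifit2. Log2 fold changes over both NICcA libraries were 3.31 (SE 1.10), 3.41 (SE 1.05), 3.67 (SE 1.15) and 4.06 (SE 1.28) in that order, with edgeR adjusted p from 0.2999 to 0.319. Ifit3 and I830012O16Rik share 51.2% and 45% of their 50-base stretches with another gene, mainly each other, so reads could have been split or shared between them.

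The OAS proteins make an oligoadenylate messenger on double-stranded RNA, which activates RNase L to degrade RNA. Among these 6 genes, on chromosome 5, the median NICcA 2 ratio was 3.17, and Oasl1 had the highest ratio. Oasl1, which holds back translation of Irf7 in mouse cells, stood at 2.22, 3.67 and 1.65 CPM in wild type libraries 1, 2 and 3, 62.9 CPM in NICcA 2 and 2.43 CPM in NICcA 3. Oas3, whose product is the long form, stood at 37.25, 29.0 and 28.9 CPM in wild type libraries 1, 2 and 3, 122 CPM in NICcA 2 and 23.55 CPM in NICcA 3. Oasl2, which carries ubiquitin-like domains, stood at 20.9, 14.8 and 15.6 CPM in wild type libraries 1, 2 and 3, 62.0 CPM in NICcA 2 and 10.1 CPM in NICcA 3. In NICcA 2 they were thus 25.0-fold, 3.85-fold and 3.64-fold the wild type mean, while Oasl2 in NICcA 3 was 0.594 times that mean and below every wild type library. Oas1a, the most abundant OAS gene per length in wild type (mean 15.8 RPKM, SD 2.12), stood at 41.1, 39.5 and 32.7 CPM in wild type libraries 1, 2 and 3, 60.3 CPM in NICcA 2 and 37.3 CPM in NICcA 3. Oas1g, its neighbour, stood at 15.8, 16.3 and 11.7 CPM in wild type libraries 1, 2 and 3, 39.3 CPM in NICcA 2 and 12.7 CPM in NICcA 3. The pair shares 57.6% (of Oas1a) and 54.7% (of Oas1g) of their 50-base stretches with other genes, nearly all with each other, and their separate values are uncertain. Oas2 was 2.11-fold the wild type mean in NICcA 2 and 0.708 times it in NICcA 3. Log2 fold changes were 3.69 (SE 1.15) for Oasl1, 1.20 (SE 0.60) for Oas3, 1.08 (SE 0.66) for Oasl2, 0.37 (SE 0.22) for Oas1a and 0.83 (SE 0.44) for Oas1g, and over the group edgeR adjusted p ran from 0.3002 to 0.603.

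The sensors of viral nucleic acid and the kinase Eif2ak2 had a median NICcA 2 ratio of 2.34 over 6 genes. Ddx58 (RIG-I), which detects short RNA with a triphosphate end, stood at 52.75, 43.4 and 49.9 CPM in wild type libraries 1, 2 and 3, 112 CPM in NICcA 2 and 39.4 CPM in NICcA 3. Dhx58 (LGP2), a helicase that tunes RIG-I and MDA5, stood at 23.9, 22.4 and 17.6 CPM in wild type libraries 1, 2 and 3, 64.8 CPM in NICcA 2 and 20.6 CPM in NICcA 3. Zbp1, a sensor of left-handed nucleic acid that can start necroptosis, stood at 11.1, 9.65 and 6.25 CPM in wild type libraries 1, 2 and 3, 35.2 CPM in NICcA 2 and 11.2 CPM in NICcA 3. Zbp1 is the one sensor that stood above wild type in both NICcA libraries, though NICcA 3 and wild type 1 were close, at 11.2 and 11.1 CPM. Ddx60, a helicase reported to act with RIG-I, stood at 14.4, 9.88 and 13.8 CPM in wild type libraries 1, 2 and 3, 30.2 CPM in NICcA 2 and 8.10 CPM in NICcA 3. Eif2ak2 (PKR), which halts translation on binding double-stranded RNA, stood at 53.3, 37.0 and 42.9 CPM in wild type libraries 1, 2 and 3, 69.6 CPM in NICcA 2 and 44.3 CPM in NICcA 3. Ddx60 in NICcA 3 was 0.637 times the wild type mean and Ddx58 0.810 times, both below every wild type library. Ifih1 (MDA5), the sensor of long double-stranded RNA, was 1.95-fold the wild type mean in NICcA 2 and 0.871 times it in NICcA 3. Log2 fold changes were 0.64 (SE 0.40) for Ddx58, 1.002 (SE 0.44) for Dhx58, 1.36 (SE 0.48) for Zbp1, 0.59 (SE 0.51) for Ddx60 and 0.36 (SE 0.24) for Eif2ak2, with edgeR adjusted p from 0.325 to 0.592 over the group.

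Mx1, Mx2, viperin and the enzymes that act on nucleotides or RNA had a median NICcA 2 ratio of 8.65 over 6 genes, the lowest of the panel included. Rsad2 (viperin), which makes a chain-terminating nucleotide, stood at 9.14, 7.48 and 6.298 CPM in wild type libraries 1, 2 and 3, 133.5 CPM in NICcA 2 and 4.60 CPM in NICcA 3. Cmpk2, a mitochondrial kinase that supplies the nucleotide viperin uses, stood at 9.16, 8.22 and 8.73 CPM in wild type libraries 1, 2 and 3, 112 CPM in NICcA 2 and 8.40 CPM in NICcA 3. The pair are neighbours on chromosome 12, at chr12:26442743-26456452 and chr12:26469117-26479837 (GRCm38.p6), and in NICcA 2 they were 17.5-fold and 12.8-fold the wild type mean. In NICcA 3 they parted: Rsad2 was below every wild type library, at 0.602 times the mean, and Cmpk2 lay inside the wild type range, at 0.9655 times. Mx1, the nuclear GTPase that blocks influenza viruses in mice that carry an intact copy, stood at 21.6, 26.35 and 10.05 CPM in wild type libraries 1, 2 and 3, 153 CPM in NICcA 2 and 28.0 CPM in NICcA 3. Wild type 3 was low for Mx1, and NICcA 3 stood above the highest wild type library by less than the wild type libraries differ among themselves. Samhd1, which degrades the nucleotides that reverse transcription needs, stood at 146, 146 and 165 CPM in wild type libraries 1, 2 and 3, 181 CPM in NICcA 2 and 108.5 CPM in NICcA 3. Its NICcA 2 value was the smallest ratio of the panel, and NICcA 3 was below every wild type library. Mx2 was 5.58-fold and Isg20 9.38-fold the wild type mean in NICcA 2, and 1.04 and 1.19 times it in NICcA 3. Log2 fold changes were 3.18 (SE 1.12) for Rsad2, 2.79 (SE 0.89) for Cmpk2 and 2.23 (SE 0.71) for Mx1, with edgeR adjusted p from 0.306 to 0.890 over the group of 6.

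The 2 membrane factors act at the outer and the endosomal membrane, and both were abundant at rest. Bst2 (tetherin), which holds budding virions on the cell, stood at 87.0, 113 and 70.9 CPM in wild type libraries 1, 2 and 3, 337 CPM in NICcA 2 and 109.7 CPM in NICcA 3. Ifitm3, which blocks fusion of virus with the endosome, stood at 63.5, 31.1 and 28.7 CPM in wild type libraries 1, 2 and 3, 182 CPM in NICcA 2 and 57.1 CPM in NICcA 3. NICcA 2 was 3.735-fold and 4.44-fold the wild type mean. NICcA 3 lay inside the wild type range for both, and for Ifitm3 the wild type libraries themselves differed by more than 2-fold. Log2 fold changes were 1.31 (SE 0.45) for Bst2 and 1.54 (SE 0.55) for Ifitm3, with edgeR adjusted p of 0.323 and 0.325.

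Isg15 is a ubiquitin-like protein that is attached to viral and host proteins and also secreted. It stood at 4.88, 6.21 and 2.97 CPM in wild type libraries 1, 2 and 3, 101 CPM in NICcA 2 and 5.03 CPM in NICcA 3. Herc6, the main ligase that attaches it in mice, stood at 20.0, 18.8 and 18.9 CPM in wild type libraries 1, 2 and 3, 52.8 CPM in NICcA 2 and 15.5 CPM in NICcA 3. Usp18, the protease that removes it and also an inhibitor of Ifnar2 signalling, stood at 20.4, 15.6 and 10.1 CPM in wild type libraries 1, 2 and 3, 90.7 CPM in NICcA 2 and 15.3 CPM in NICcA 3. The modifier thus differed from the wild type mean by 21.6-fold in NICcA 2, the protease by 5.90-fold and the ligase by 2.75-fold. Trim21, a cytosolic antibody receptor and ubiquitin ligase, stood at 19.8, 17.6 and 18.1 CPM in wild type libraries 1, 2 and 3, 29.3 CPM in NICcA 2 and 18.2 CPM in NICcA 3. NICcA 3 lay inside the wild type range for Isg15, Usp18 and Trim21 and below it for Herc6. Log2 fold changes were 3.50 (SE 1.07) for Isg15, 1.79 (SE 0.69) for Usp18, 0.83 (SE 0.46) for Herc6 and 0.36 (SE 0.21) for Trim21, with edgeR adjusted p from 0.299 to 0.438. Herc6 shares 23.8% of its 50-base stretches with 1 predicted gene.

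The PARP and nuclear group held 3 strongly and 3 weakly differing genes. Phf11b, a PHD finger protein, stood at 3.19, 2.42 and 2.09 CPM in wild type libraries 1, 2 and 3, 28.8 CPM in NICcA 2 and 3.56 CPM in NICcA 3. Phf11a stood at 0.729, 0.614 and 0.728 CPM in wild type libraries 1, 2 and 3, 8.06 CPM in NICcA 2 and 0.762 CPM in NICcA 3, on counts of 42, 45 and 48 in wild type, 539 in NICcA 2 and 55 in NICcA 3. Phf11d stood at 3.64, 3.685 and 4.51 CPM in wild type libraries 1, 2 and 3, 26.9 CPM in NICcA 2 and 2.59 CPM in NICcA 3. In NICcA 2 these 3 neighbours on chromosome 14 were 11.2-fold, 11.7-fold and 6.83-fold the wild type mean, and in NICcA 3 they went apart, with Phf11a and Phf11b above and Phf11d below every wild type library. They share 47.0% (Phf11b), 35.2% (Phf11a) and 13.9% (Phf11d) of their 50-base stretches with other genes, mostly of the same family. Parp14, an ADP-ribosyl transferase, stood at 199.8, 159 and 174 CPM in wild type libraries 1, 2 and 3, 308 CPM in NICcA 2 and 147.5 CPM in NICcA 3. Parp9, a catalytically weak relative, stood at 78.9, 77.9 and 75.8 CPM in wild type libraries 1, 2 and 3, 111 CPM in NICcA 2 and 71.7 CPM in NICcA 3. Sp100, a nuclear body protein, stood at 27.5, 23.4 and 21.3 CPM in wild type libraries 1, 2 and 3, 40.5 CPM in NICcA 2 and 22.8 CPM in NICcA 3. For these 3 NICcA 2 was 1.73-fold, 1.44-fold and 1.68-fold the wild type mean, and NICcA 3 was below every wild type library for Parp14 and Parp9 and inside the range for Sp100. Phf11b had the smallest unadjusted edgeR p of the panel, 0.0134, with a log2 fold change of 2.65 (SE 0.77) and an adjusted p of 0.289. The other log2 fold changes were 2.67 (SE 0.85) for Phf11a, 1.90 (SE 0.82) for Phf11d, 0.36 (SE 0.30) for Parp14, 0.24 (SE 0.19) for Parp9 and 0.39 (SE 0.25) for Sp100, with edgeR adjusted p up to 0.582.

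The other 6 genes have varied or less settled roles. Ifi44, a cytoplasmic protein induced by interferon, stood at 1.34, 1.41 and 0.5615 CPM in wild type libraries 1, 2 and 3, 28.8 CPM in NICcA 2 and 1.37 CPM in NICcA 3. Xaf1, a partner of the apoptosis inhibitor Xiap, stood at 13.9, 18.5 and 11.4 CPM in wild type libraries 1, 2 and 3, 50.5 CPM in NICcA 2 and 11.3 CPM in NICcA 3. Rtp4, a receptor chaperone that also limits flaviviruses, stood at 29.0, 19.5 and 21.7 CPM in wild type libraries 1, 2 and 3, 52.2 CPM in NICcA 2 and 14.97 CPM in NICcA 3. Ifi44 in NICcA 2 was 26.15-fold the wild type mean, on counts of 37 to 103 in wild type and 1925 in NICcA 2, while Rtp4 in NICcA 3 was 0.640 times that mean. Ifi35, a leucine zipper protein, stood at 29.4, 29.0 and 22.35 CPM in wild type libraries 1, 2 and 3, 64.0 CPM in NICcA 2 and 31.8 CPM in NICcA 3. Ifi27l2a stood at 65.05, 65.3 and 43.3 CPM in wild type libraries 1, 2 and 3, 122 CPM in NICcA 2 and 70.75 CPM in NICcA 3. Tor3a, an ATPase of the endoplasmic reticulum, stood at 76.9, 95.8 and 81.5 CPM in wild type libraries 1, 2 and 3, 138 CPM in NICcA 2 and 71.6 CPM in NICcA 3. Ifi35 and Ifi27l2a were above wild type in both NICcA libraries, at 1.18 and 1.22 times the wild type mean in NICcA 3, and Tor3a was below every wild type library there. Log2 fold changes were 3.77 (SE 1.12) for Ifi44, 1.08 (SE 0.58) for Xaf1, 0.52 (SE 0.49) for Rtp4, 0.83 (SE 0.30) for Ifi35, 0.74 (SE 0.28) for Ifi27l2a and 0.31 (SE 0.27) for Tor3a, with edgeR adjusted p from 0.299 to 0.622.

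The next question is which genes were above wild type in both NICcA libraries. There were 6 of 40: Ifi27l2a, Ifi35, Mx1, Phf11a, Phf11b and Zbp1. That is 15%, against 18.4% of all tested genes, so the share is near that of genes in general. Since NICcA 2 was above in all 40, the count is set by NICcA 3, which lay above every wild type library in 15% of the panel and in 27.7% of all tested genes. In NICcA 3 these 6 ranged from 1.10 times the wild type mean in Phf11a to 1.45 times in Mx1, and in NICcA 2 from 2.11 times in Ifi27l2a to 11.7 times in Phf11a. None had an edgeR adjusted p below 0.05 when NICcA 2 was left out, the lowest in the panel then being 0.901. With NICcA 2 above in all 40, no gene of the panel could be below wild type in both NICcA libraries, as 18.5% of all tested genes were.

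NICcA 3 lay below every wild type library for 17 of the 40 genes, which is 42.5%, against 28.0% of all tested genes. They were Ddx58, Ddx60, Herc6, I830012O16Rik, Ifih1, Ifit3, Oas2, Oas3, Oasl2, Parp14, Parp9, Phf11d, Rsad2, Rtp4, Samhd1, Tor3a and Xaf1. The lowest ratios to the wild type mean were 0.594 in Oasl2, 0.602 in Rsad2, 0.637 in Ddx60 and 0.640 in Rtp4, and none of the 17 passed edgeR's test with NICcA 2 left out. The remaining 17 genes lay inside the wild type range. The median NICcA 3 difference was -0.075 on the log2 CPM scale, and 0.0065 for all tested genes. The wild type libraries differed too: wild type 3 was the lowest of the 3 for 24 of the 40 genes (36.9% of all tested genes), and the panel's median deviation in log2 CPM was 0.16 for wild type 1 and -0.21 for wild type 3.

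Genes that make, carry or limit the interferon signal were taken as lists. With the effectors themselves left out, 55 of the 67 listed genes were tested. EdgeR's test called 0 of them. At an unadjusted p below 0.05, 19 of the 55 were higher and 3 lower, against 7.68% of all tested genes higher and 6.83% lower. DESeq2 called 7 higher and 1 lower, against 2.09% and 1.94% of all genes it tested. Ifnb1, interferon beta, had 24 counts in NICcA 2, 2 in wild type 2 and 0 in the other 3 libraries. Ifna4, Ifna5 and Ifna6 were at 0 counts in every library, which allows up to 3 counts, or at most 0.0521 CPM, and Ifna1, Ifna2, Ifne, Ifng, Ifnl2 and Ifnl3 had at most 6 counts in any library. For both receptor chains NICcA 2 lay inside the wild type range and NICcA 3 below it: Ifnar1 stood at 89.0, 91.6 and 113 CPM in wild type libraries 1, 2 and 3, 107 CPM in NICcA 2 and 77.0 CPM in NICcA 3, and Ifnar2 at 54.4, 52.4 and 60.8 CPM in wild type libraries 1, 2 and 3, 53.0 CPM in NICcA 2 and 49.0 CPM in NICcA 3. Below the receptor, Stat2 stood at 58.9, 52.0 and 39.3 CPM in wild type libraries 1, 2 and 3, 141 CPM in NICcA 2 and 56.4 CPM in NICcA 3, and its partner Irf9 at 56.8, 53.3 and 50.3 CPM in wild type libraries 1, 2 and 3, 65.9 CPM in NICcA 2 and 50.6 CPM in NICcA 3. In NICcA 2 Stat2 thus differed from the wild type mean by 1.52 on the log2 CPM scale against 0.30 for Irf9, and in NICcA 3 by 0.19 against -0.078. Irf7, the amplifier of interferon induction and itself an ISRE target, stood at 12.4, 19.05 and 10.8 CPM in wild type libraries 1, 2 and 3, 206 CPM in NICcA 2 and 11.2 CPM in NICcA 3. Irf3, which is activated without a change in its RNA, stood at 34.5, 42.0 and 34.8 CPM in wild type libraries 1, 2 and 3, 38.3 CPM in NICcA 2 and 42.7 CPM in NICcA 3. With NICcA 3 left out, Irf7 passed as higher in NICcA 2 (edgeR adjusted p = 0.0305), and so did Cxcl10, Igtp, Iigp1, Il1b and Il12b. Of the feedback inhibitors, which include Usp18, Socs1 stood at 9.30, 11.0 and 4.63 CPM in wild type libraries 1, 2 and 3, 61.4 CPM in NICcA 2 and 17.7 CPM in NICcA 3. Socs1 lay above every wild type library in both NICcA libraries.

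**Figure D4:**
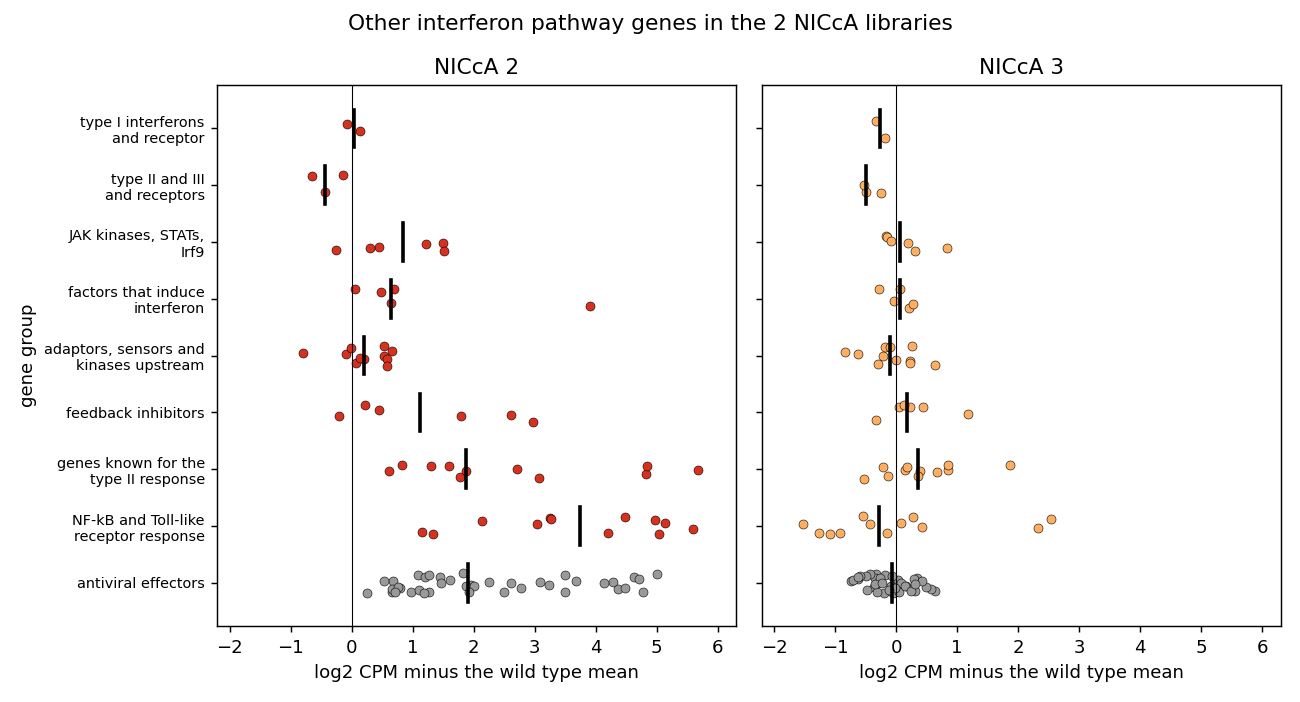
Points are genes of 8 lists around the interferon pathway and, in grey, the 40 effectors, placed by their log2 CPM minus the wild type mean in NICcA 2 (left) and NICcA 3 (right), with black bars for list medians. In NICcA 2 the medians were 1.90 for the effectors and 3.74 for the NF-kB and Toll-like receptor list, and in NICcA 3 they were -0.075 and -0.29.

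Other gene groups were high in NICcA 2 as well. The 12 NF-kB and Toll-like receptor response genes, such as Il1b, Tnf and Il12b, were all above every wild type library there, at a summed 1071 CPM, while the wild type sums were 115 to 205 CPM and that of NICcA 3 was 211 CPM. Within the list, Il1b stood at 16.6, 14.3 and 14.8 CPM in wild type libraries 1, 2 and 3, 501 CPM in NICcA 2 and 76.4 CPM in NICcA 3, and Il6 at 0.104, 2.29 and 0.0607 CPM in wild type libraries 1, 2 and 3, 9.53 CPM in NICcA 2 and 0.0970 CPM in NICcA 3. Among the wild type libraries, wild type 2 was the highest for 10 of these 12 genes, wild type 1 for 1 (Il1b) and wild type 3 for 1. For the 40 effector genes, wild type 1 was the highest for 27, wild type 2 for 10 and wild type 3 for 3, and over all 13339 tested genes these counts were 4280, 4533 and 4526. Of the 12 genes known for the type II interferon response, 11 were tested. All 11 were above every wild type library in NICcA 2, as were 32.3% of all tested genes. For 5 of the 11, NICcA 3 lay above every wild type library too, against 18.4% of all tested genes above in both. Iigp1 was among the 5, at 1.62 times the wild type mean in NICcA 3, and Cxcl10 and Gbp2 were not. Cxcl10 stood at 26.6 CPM in NICcA 2, while wild type held 0.304 to 0.669 CPM and NICcA 3 held 0.652 CPM. Gbp2, a guanylate-binding protein, stood at 50.3, 60.5 and 31.6 CPM in wild type libraries 1, 2 and 3, 299.7 CPM in NICcA 2 and 59.05 CPM in NICcA 3. The part of these responses in the effector values was not tested.

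Markers of other cell types gave the following. Plasmacytoid dendritic cells are known for making much interferon, and their 6 markers, of which 4 were tested, summed to 88.7 to 126 CPM in wild type, 352 in NICcA 2 and 125 in NICcA 3. Without Bst2, a gene of the panel, the sum was 12.7 to 17.8 CPM in wild type, 14.3 in NICcA 2 and 14.9 in NICcA 3, and Tcf4 made up most of it, at 11.75 to 16.8 CPM in wild type. The defining marker Siglech stood at 0.1735, 0.0819 and 0.0607 CPM in wild type libraries 1, 2 and 3, 0.269 CPM in NICcA 2 and 0.707 CPM in NICcA 3. It was low in all libraries, with 4 to 10 counts in wild type, 18 in NICcA 2 and 51 in NICcA 3, and lay above every wild type library in both NICcA libraries (unadjusted p = 0.0154, edgeR adjusted p = 0.299). The 8 dendritic cell markers summed to 734 to 934 CPM in wild type, 1027 in NICcA 2 and 671 in NICcA 3, and most of each sum was Itgax, at 551 to 848 CPM. Their median difference from wild type, in log2 CPM, was 0.86 in NICcA 2 and 0.75 in NICcA 3. Of the 8, 4 (Flt3, Zbtb46, Cd209a and Xcr1) lay above every wild type library in both NICcA libraries, against 18.4% of all tested genes. Flt3 and Xcr1 had low counts, at most 55 and 43 in any library. Clec9a went the other way, at 0.306 times the wild type mean in NICcA 2 and 0.603 times in NICcA 3. Itgax and Batf3 were 1.04 and 1.75 times that mean in NICcA 2 and 0.714 and 0.801 times in NICcA 3. EdgeR and DESeq2 each called 0 of the 8, and 1, Zbtb46, had an unadjusted edgeR p below 0.05. Ccr7 stood at 33.5, 77.6 and 23.7 CPM in wild type libraries 1, 2 and 3, 166 CPM in NICcA 2 and 69.4 CPM in NICcA 3. The 8 T and NK cell markers summed to at most 4.36 CPM and the 5 B cell markers to at most 1.002 CPM, with Cd3e at or near 0. Neutrophil markers (6 of 7 in the table) summed to 42.0 to 82.8 CPM in wild type, 82.3 in NICcA 2 and 94.0 in NICcA 3. The 5 fibroblast markers summed to 17.1 CPM in wild type 1 and to under 1 CPM in the other 4 libraries. The part of the dendritic cell, plasmacytoid dendritic cell and neutrophil differences in the result was not tested.

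A second transcript row existed for Ifih1, Isg20, Samhd1, Trim21 and Zbp1, and NICcA 2 was highest in each. The choice of row matters for the level of Zbp1 per length, where the second row stood at 10.3, 8.24 and 5.74 RPKM in wild type libraries 1, 2 and 3, 32.3 RPKM in NICcA 2 and 10.75 RPKM in NICcA 3, against 4.53, 3.77 and 2.445 RPKM in wild type libraries 1, 2 and 3, 15.1 RPKM in NICcA 2 and 4.80 RPKM in NICcA 3 in the chosen row.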

How the data were processed

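RNA of bone marrow-derived macrophages was sequenced on an Illumina instrument in 5 libraries, whose groups follow the labelled genotype. Bowtie 0.12.2 and the build mm8 stand in the submitters' processing notes, with no roles. How reads were counted, with what strand setting and at what read length, is not given in the sources. The authors deposited a raw read count and an RPKM value for each of 27457 transcript rows, and a second table of RPKM alone for 64528 rows, per the file headers.

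Each gene is its row with the highest mean count. Counts of all rows entered edgeR 4.0.16 (R 4.3.3) with filterByExpr, TMM scaling and the quasi-likelihood functions glmQLFit and glmQLFTest, genotype as the one term and Benjamini-Hochberg adjustment over 18267 rows, at an adjusted p below 0.05. The design was written for genes, while rows are transcripts. The standard error is the log2 fold change over the square root of the F statistic, without sign. Differences of single libraries are in log2 CPM with a prior count of 2, and ratios are of CPM without one. The common biological coefficient of variation, which leaves out counting error, was 22.5%. Counting error was small beside it for genes with many counts. It was not small for genes with few, such as I830012O16Rik (26, 35 and 49 in wild type) and Siglech (10, 6 and 4). The script was tested on simulated data.

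Given in full are, per role group, the 3 genes with the highest mean RPKM, the 2 with the largest NICcA 2 difference and the 1 with the largest NICcA 3 difference. Other genes are named for a count or value, and 2 genes of the pathway and marker lists are not reported here by name. The panel, the role groups, the pathway and marker lists and the tests were chosen with earlier results of these data known. Alternatives were RLE or no scaling factors, filters on low counts, DESeq2 1.42.0, 1 row per gene, limma 3.58.1 on log2 RPKM, a replicate term, and leaving out each library in turn. Promoters are RefSeq sequences of GRCm38.p6 matched by accession or symbol. Of the 40 genes, 11 had no entry (Dhx58, Ifi27l2a, Mx1, Mx2, Oas2, Parp14, Parp9, Rtp4, Tor3a, Usp18 and Zbp1). Shared stretches are 50-base words of the chosen transcripts also found in transcripts of another gene. Sequences and figures used Python 3.11.15, pandas 2.3.3, numpy 2.4.6, Biopython 1.88 and matplotlib 3.10.9.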

Additional observations from a re-analysis of the deposited data

How the results depend on the processing

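Of the 40 effector genes, 0 were called by edgeR under RLE or no scaling factors, under other filters on low counts, with 1 row per gene, by limma on log2 RPKM or without any 1 wild type library, and DESeq2 called 2. Over the fits that leave out 1 library the number called ran from 0 to 14, the latter without NICcA replicate 3. The median log2 fold change ran from -0.090 without NICcA replicate 2 to 1.88 without NICcA replicate 3. With 1 library left out, the number of genes above every wild type library in the NICcA libraries kept ran from 6 to 40. That number was 9 without wild type 1, 10 without wild type 2 and 40 without NICcA replicate 3. It was 8 with no scaling factors and on RPKM, and 5 with the filter at 1 CPM in 2 libraries, which Phf11a did not pass. With the replicate block, 0 genes were called and the median was 0.888. Deviations of equally numbered libraries, here each from the mean of its own genotype, correlated at 0.206 (number 2) and 0.168 (number 3) over 13339 genes. With 2 NICcA libraries such deviations are equal and opposite, so the unequal numbers had to give the same values with the sign reversed. These were -0.206 for wild type 2 with NICcA 3 and -0.168 for wild type 3 with NICcA 2. The pairs are too few to show pairing, and no source says that the numbers pair the libraries. The filter at 1 CPM and limma on RPKM drop some low genes and give those no value.

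With no scaling factors, Samhd1 stood at 0.030 in place of -0.072, and it ran from -0.49 without NICcA replicate 2 to 0.25 without NICcA replicate 3. For 27 other genes the log2 fold change was below 0 without NICcA replicate 2, and highest without NICcA replicate 3: Ifit1 -0.38 to 4.25, Ifit2 -0.099 to 4.34, Ifit3 -0.35 to 4.63, I830012O16Rik -0.42 to 5.03, Rsad2 -0.73 to 4.13, Usp18 -0.0064 to 2.56, Ddx58 -0.31 to 1.20, Ifih1 -0.20 to 0.97, Dhx58 -0.051 to 1.61. The next were Ddx60 -0.65 to 1.25, Cmpk2 -0.052 to 3.68, Xaf1 -0.38 to 1.79, Phf11d -0.61 to 2.77, Sp100 -0.082 to 0.75, Parp9 -0.11 to 0.52, Parp14 -0.27 to 0.80, Trim21 -0.023 to 0.67, Herc6 -0.31 to 1.46. The rest were Rtp4 -0.65 to 1.16, Eif2ak2 -0.0036 to 0.65, Tor3a -0.24 to 0.71, Oas1a -0.0196 to 0.68, Oas1g -0.20 to 1.43, Oas2 -0.50 to 1.08, Oas3 -0.43 to 1.95, Oasl1 -0.057 to 4.64, Oasl2 -0.75 to 1.86. Each fit without a NICcA library compares 1 library with 3, and its spread is that of wild type. With 2 NICcA libraries that differ, no fit can say which is typical of the genotype.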

Other observations

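The second deposited table, which holds noncoding transcripts too, carries a noncoding row for the panel genes Mx1 and Mx2. It also carries one for Oas1b, a relative of the panel's OAS genes. The noncoding Mx1 row stood at 6.25, 7.31 and 2.83 RPKM in wild type 1, 2 and 3, at 46.0 RPKM in NICcA 2 and at 8.38 RPKM in NICcA 3. The noncoding Oas1b row stood at 1.40, 1.27 and 1.18 RPKM in wild type 1, 2 and 3, at 3.46 RPKM in NICcA 2 and at 1.20 RPKM in NICcA 3. Both were highest in NICcA 2. They can share reads with the coding rows of the same gene or its neighbours and are no independent measurement.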
